A study of Mus musculus with 6 samples.

Results

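The mouse miRNAs mmu-miR-126a-3p and mmu-miR-126a-5p are the mature products of both arms of a single mouse hairpin, Mir126a, and they were picked by name from the deposited liver profile, as 2 of its 1546 listed mature miRNAs. Liver tissue came from male C57BL/6 mice that were 8 weeks old when the diets began and that were kept on them for 16 weeks. The control group (NC, n = 3 livers) received a normal diet, and the MAFLD group (n = 3 livers) received a high-fat diet, which is used to model metabolic dysfunction-associated fatty liver disease. Each diet was given to 6 mice, 1 library was made per sequenced liver, no pooling is described, and neither group carried a transgene or a deletion. Small RNA libraries with inserts of 14 to 40 nt were read for 50 cycles, and each value is given in CPM, which scales the reads on all listed miRNAs of a library to a total of 1000000.

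MiR-126 is the miRNA most closely tied to endothelial cells, which line the vessels and the sinusoids of the liver. Its hairpin is cut from an intron of Egfl7, a gene that encodes a protein secreted by endothelial cells. The 3p arm is the main guide strand and strengthens signalling from vascular endothelial growth factor by repressing inhibitors of that pathway such as Spred1 and Pik3r2, and it also represses the adhesion molecule Vcam1. The 5p arm is scarcer and is known for supporting endothelial proliferation through Dlk1. Platelets and blood progenitors carry miR-126 as well, so that it is not exclusive to vessels.

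The sequences of the locus are shown because the seed of a miRNA sets which transcripts it pairs with and because a hairpin annotated on the opposite strand yields miRNAs that pair with it. They were taken from RefSeq on GRCm38.p6. In miR-126a-3p the capitals mark the seed (bases 2 to 8), in the hairpin they mark the 3p arm, and in miR-126b-5p they mark the 19 bases that are complementary to miR-126a-3p.
miR-126a-3p: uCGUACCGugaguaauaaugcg
Mir126a hairpin: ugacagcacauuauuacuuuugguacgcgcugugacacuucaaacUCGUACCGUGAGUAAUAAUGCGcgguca
miR-126b-5p: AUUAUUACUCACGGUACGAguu
The hairpin of 73 nt lies on the plus strand at chr2:26591357-26591429, and miR-126a-3p covers chr2:26591402-26591423. Of the 1679 mature miRNAs with a RefSeq sequence, 1 carried this seed, miR-126a-3p itself, so that no other miRNA shared its seed. The mature sequence of miR-126a-5p was not used here.

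In the GENCODE annotation of the same build, 9 of the 19 Egfl7 transcripts span the hairpin. It is intronic in 8 of them, and in the coding transcript Egfl7-201 it lies in intron 7 of 9, which measures 600 bases (chr2:26591064-26591663). In 1 transcript with a retained intron it falls into an exon. The gene model Gm20532 also overlaps it on the plus strand, and Mir126b (chr2:26591363-26591420) lies on the minus strand inside the hairpin. The products of Mir126b were near the limit of detection. MiR-126b-3p was read once in MAFLD replicate 1 and 2 times in MAFLD replicate 2, miR-126b-5p was read 2 times in NC replicate 1, and the other libraries had 0 reads of either. A count of 0 allows up to 3 reads, which is between 0.640 and 2.24 CPM at these depths. No other listed name had the same reads as either arm of miR-126a (within 2% or 1 read in each library).

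The libraries held between 1336935 and 4685712 reads on miRNAs. MiR-122-5p, the hepatocyte miRNA that marks liver tissue, ranked 3 or 4 in all 6 libraries, at 42159 to 85150 CPM. The largest share belonged to miR-148a-3p, with 71.4%, 63.3% and 48.5% of the reads in NC replicates 1, 2 and 3 and 46.8% to 56.7% in the MAFLD libraries. In this share NC replicate 3 thus stood with the MAFLD libraries. As CPM add up to a fixed total, a smaller share of miR-148a-3p leaves more to the other miRNAs together. NC replicates 1 and 2 also carried more of the 5 neuronal miRNAs fixed as a list (474 and 775 CPM in sum) than NC replicate 3 (56.1 CPM) or the MAFLD libraries (48.7 to 73.6 CPM). The part of these differences in the results was not tested, and values are given with and without NC replicate 3.

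The 3p arm, mmu-miR-126a-3p, was among the most abundant miRNAs of the liver, ranked 11 to 13 in every library. In the NC livers it stood at 4583, 4562 and 6299 CPM, from 11684, 7160 and 8421 reads. In the MAFLD livers it stood at 9646, 7762 and 7327 CPM, from 25710, 36369 and 11244 reads. Every MAFLD liver was above every NC liver, and NC replicate 3 was the highest of the controls. The 95% Wilson intervals, which cover counting error only, ran from 6166 to 6434 CPM in NC replicate 3 and from 7193 to 7463 CPM in MAFLD replicate 3, the closest pair across the groups. Of neighbouring libraries in this order, NC replicates 1 and 2 were the pair with overlapping intervals (4501 to 4666 and 4458 to 4669 CPM).

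The mean level of miR-126a-3p was 5148 ± 997 CPM (SD, n = 3) in NC and 8245 ± 1232 CPM (SD, n = 3) in MAFLD livers. On log2(CPM + 1), the log2 fold change was 0.69 (standard error 0.28, 95% interval 0.097 to 1.27), or 1.61-fold (limma, unadjusted p = 0.0252, Benjamini-Hochberg adjusted p = 0.212). The difference was not past the adjusted p of 0.05, a threshold that 1 of the 501 miRNAs tested (0.200%) passed. A two-sided exact permutation test gave p = 0.1, the smallest value that 3 livers against 3 allow. At an unadjusted p under 0.05, 18.0% of all miRNAs differed, made up of 13.4% that were higher and 4.59% that were lower in MAFLD livers. The groups did not overlap for 19.4% of all miRNAs, with MAFLD livers higher for 15.2% and lower for 4.19%, so that both features of miR-126a-3p were shared with many other miRNAs. In bulk tissue, fewer or more endothelial cells and less or more miRNA per cell cannot be told apart.

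The 5p arm, mmu-miR-126a-5p, was far scarcer. NC livers had 345, 231 and 386 reads of it, equal to 135, 147 and 289 CPM. MAFLD livers had 1357, 1313 and 510 reads, equal to 509, 280.2 and 332 CPM. The groups overlapped, because NC replicate 3 lay above MAFLD replicate 2. The Wilson intervals of these libraries overlapped (261 to 319 CPM and 265 to 296 CPM), and that of NC replicate 3 also overlapped with that of MAFLD replicate 3 (305 to 362 CPM). NC replicates 1 and 2 were lower than all other libraries and did not differ from each other beyond counting error (122 to 150.4 and 129 to 167 CPM).

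**Figure D1:**
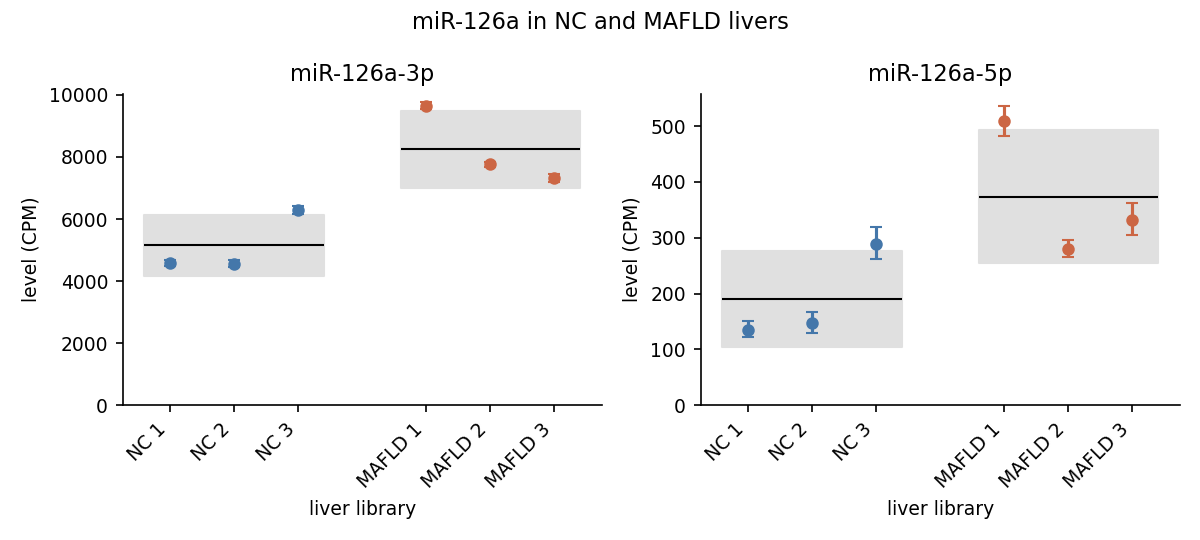
Level of miR-126a-3p (left) and miR-126a-5p (right) in CPM on linear axes from 0, for the 3 NC (blue) and 3 MAFLD (orange) liver libraries. Points carry 95% Wilson intervals of counting error, black lines are group means and grey bands ± 1 SD. The 3p arm is at 4562 to 6299 CPM in NC and 7327 to 9646 CPM in MAFLD livers, whereas for the 5p arm NC replicate 3 (289 CPM) lies above MAFLD replicate 2 (280.2 CPM).

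The mean level of miR-126a-5p was 190.4 ± 85.3 CPM (SD, n = 3) in NC and 374 ± 120.0 CPM (SD, n = 3) in MAFLD livers. The log2 fold change was 1.01 (standard error 0.40, 95% interval 0.15 to 1.87), or 2.01-fold (limma, unadjusted p = 0.0242, adjusted p = 0.212). The exact permutation test gave a two-sided p of 0.2. The fold change of the 5p arm was exceeded by 74 of the 501 miRNAs (14.8%), and that of the 3p arm by 156 (31.1%).

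Most miRNAs had more CPM in MAFLD livers, with a log2 fold change above 0 for 71.3% and a median of 0.43. Relative to this median, the 3p arm differed by 0.26 and the 5p arm by 0.58 on the log2 scale. Median-ratio scaling, which sets the typical miRNA to the same level in each library, was tried as an alternative. With it, the median of all miRNAs was 0.044, the log2 fold change of the 3p arm was 0.22 (95% interval −0.22 to 0.66, adjusted p = 0.620 from limma) and that of the 5p arm was 0.55 (95% interval 0.052 to 1.04, adjusted p = 0.268 from limma). With miR-148a-3p left out of the totals, they were 0.34 and 0.67, beside a median of 0.16. Each scaling moved both arms by nearly the same amount on the log2 scale, as it shifts all miRNAs of a library alike. This amount was a larger share of the 3p difference only because that difference was the smaller.

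**Figure D2:**
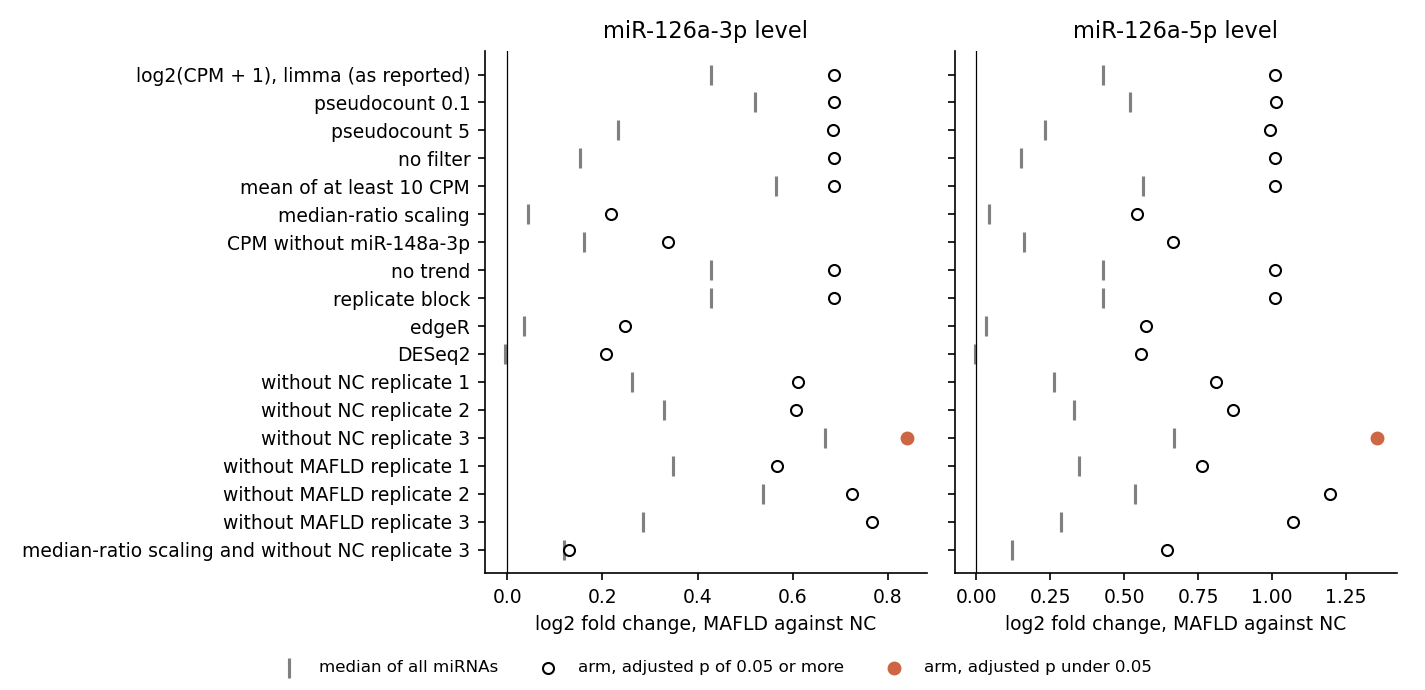
Log2 fold change of the 3p arm (left) and the 5p arm (right), MAFLD against NC, under each processing setting (rows). Circles are the arm, filled orange where its adjusted p was under 0.05, and grey ticks are the median of all miRNAs in the same fit. Both arms were above 0 and above the median in every setting shown, the 3p arm by as little as 0.010 without NC replicate 3 under median-ratio scaling, and leaving out NC replicate 3 alone was the setting with filled circles.

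With any single library other than NC replicate 3 left out, the adjusted p from limma was 0.294 to 0.655 for the 3p arm and 0.215 to 0.655 for the 5p arm. NC replicate 3 was the highest control for both arms, so that leaving it out widens the difference. Without NC replicate 3, both arms passed the adjusted p. The 3p arm was then 0.84 higher on the log2 scale (limma, adjusted p = 0.0119) and the 5p arm 1.35 higher (limma, adjusted p = 0.00974). In the same fit 22.8% of the 501 miRNAs were called, made up of 19.0% that were higher and 3.79% that were lower in MAFLD livers, and the median of all miRNAs was 0.67. Under median-ratio scaling without NC replicate 3, the 3p arm was at 0.13 and the 5p arm at 0.65, beside a median of 0.12, with adjusted p of 0.747 and 0.121 from limma.

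The arm ratio was compared next, because both arms come from the same hairpin and their ratio within a library does not change with the scaling of that library. There were 33.9, 31.0 and 21.8 reads of the 3p arm for each read of the 5p arm in the NC livers. In the MAFLD livers there were 18.9, 27.7 and 22.0. The groups overlapped, and the spread within each group was as wide as the distance between them. NC replicate 3 (95% interval 19.7 to 24.2) did not differ beyond counting error from MAFLD replicate 3 (20.2 to 24.1).

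The mean ratio was 28.9 ± 6.29 (SD, n = 3) in NC and 22.9 ± 4.44 (SD, n = 3) in MAFLD livers. As a share of all miR-126a reads, the 5p arm made up 2.87%, 3.13% and 4.38% in NC and 5.01%, 3.48% and 4.34% in MAFLD livers. The change of log2(3p/5p) was −0.32 (standard error 0.29, 95% interval −0.96 to 0.31, adjusted p = 0.623 from limma over 105 hairpins). The interval reaches from 0.51-fold to 1.24-fold in the 3p to 5p ratio, so that with 3 livers a group it includes no change and shifts towards either arm. The two-sided exact permutation test gave p = 0.3. Without NC replicate 3 the change was −0.51 (limma, adjusted p = 0.200).

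None of the 105 hairpins whose arms both averaged 1 CPM or more passed the adjusted p with limma, and 15 (14.3%) passed an unadjusted p under 0.05. With edgeR on the recovered reads 0 passed as well, and 13 had an unadjusted p under 0.05. For 20.0% of the hairpins the groups did not overlap in arm ratio, and miR-126a was not one of them. The change in miR-126a was smaller in size than that of 65 hairpins, and the median size over all 105 was 0.50. The 3p arm was the more abundant arm in 55 of the hairpins, and 31 had a stronger preference for one arm than miR-126a, whose mean log2(3p/5p) was 4.66.

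**Figure D3:**
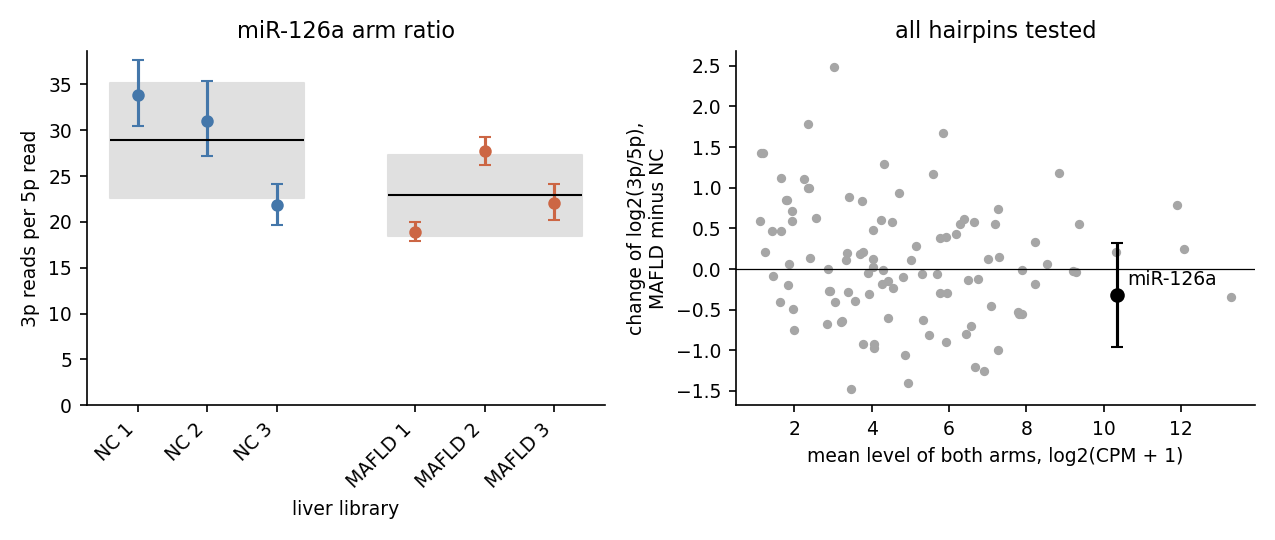
Left, reads of miR-126a-3p per read of miR-126a-5p in each library, on a linear axis from 0, with 95% intervals from counting error, group means (lines) and ± 1 SD (grey bands). Right, change of log2(3p/5p) between MAFLD and NC livers against the mean log2(CPM + 1) of both arms for 105 hairpins, with miR-126a in black and its 95% interval (−0.96 to 0.31). The NC ratios (21.8 to 33.9) and the MAFLD ratios (18.9 to 27.7) overlap.

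To read the endothelial miRNA against the main cell type of the liver, both arms were divided by the hepatocyte miRNA miR-122-5p within each library, which also removes the scaling. MiR-126a-3p amounted to 10.9%, 8.38% and 7.40% of miR-122-5p in the NC livers and to 13.7%, 14.1% and 10.8% in the MAFLD livers. NC replicate 1 and MAFLD replicate 3 overlapped narrowly, and the other libraries were apart by group. The mean was 8.88 ± 1.79% (SD, n = 3) against 12.9 ± 1.77% (SD, n = 3), a difference of 0.54 on the log2 scale (two-sided exact permutation test, p = 0.2). It was 0.42 without NC replicate 3 (two-sided exact permutation test, p = 0.4), where the groups still overlapped and 2 livers against 3 cannot give a p under 0.2.

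MiR-126a-5p amounted to 0.321%, 0.270% and 0.339% of miR-122-5p in the NC livers and to 0.722%, 0.508% and 0.490% in the MAFLD livers. Here the groups did not overlap, and NC replicate 3 lay with the other controls. The difference was 0.87 on the log2 scale (two-sided exact permutation test, p = 0.1, the smallest possible). On CPM alone, MAFLD livers were higher without overlap for 15.2% of all miRNAs. For ratios to miR-122-5p this share was not counted. MiR-122-5p itself was at 60580 ± 22146 CPM (SD, n = 3) in NC and 64494 ± 8171 CPM (SD, n = 3) in MAFLD livers (log2 fold change 0.14, adjusted p = 0.800 from limma), and its direction turned with median-ratio scaling (−0.32).

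With the sum of all 4 hepatocyte miRNAs of the list (both arms of miR-122, miR-192-5p and miR-194-5p) as the partner, the ratio of miR-126a-3p was 0.0368 to 0.0446 in NC and 0.0466 to 0.0546 in MAFLD livers. These groups did not overlap, with a log2 difference of 0.37 (two-sided exact permutation test, p = 0.1). By mean level, miR-192-5p (77925 CPM) and miR-122-5p (62537 CPM) made up most of this sum. Their log2 fold changes (0.43 and 0.14) were below the 0.69 of miR-126a-3p. Those of miR-194-5p (0.84) and miR-122-3p (0.93) were above it, so that miR-126a-3p fell relative to either of them on the mean log2 scale. Relative to miR-148a-3p, miR-126a-3p amounted to 0.642%, 0.720% and 1.30% in NC and to 2.06%, 1.37% and 1.42% in MAFLD livers, again without overlap. The gap between NC replicate 3 and MAFLD replicate 2 was narrow, and miR-148a-3p itself had a log2 fold change of −0.23. How many of all miRNAs would also separate by group against miR-122-5p, the hepatocyte sum or miR-148a-3p was not counted.

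A list of 25 miRNAs with described roles in endothelial cells, which other liver cells make too, was set beside the arms. Of the 24 members that were tested, 0 passed the adjusted p with limma, 7 were higher and 1 was lower at an unadjusted p under 0.05, against 13.4% and 4.59% of all miRNAs. Every MAFLD liver was above every NC liver for 7 of the 24, against 15.2% of all miRNAs, and the median log2 fold change was 0.63, beside 0.43 for all miRNAs. With median-ratio scaling these medians were 0.19 and 0.044. Without NC replicate 3 they were 1.05 and 0.67, and 14 of the 24 were called higher and 1 lower at the adjusted p (limma), against 19.0% and 3.79% of all miRNAs in that fit. MiR-17-5p, miR-19b-3p, miR-20a-5p and miR-92a-3p, all of the miR-17-92 cluster, were among both the 7 higher members and the 7 without overlap. Members of the same cluster are not independent of each other, so these counts are not of separate miRNAs.

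The 4 most abundant members were miR-101a-3p, miR-27b-3p, miR-10a-5p and miR-100-5p. MiR-101a-3p, which represses the histone methyltransferase Ezh2, was at 4260 ± 1613 CPM in NC and 7185 ± 358 CPM in MAFLD livers (SD, n = 3 each), with a log2 fold change of 0.82. MiR-27b-3p, of the miR-23, miR-27 and miR-24 clusters that act in vessel sprouting, was at 3746 ± 1787 and 6002 ± 1431 CPM (log2 fold change 0.75). MiR-10a-5p, which restrains inflammatory activation of endothelium, was at 3922 ± 690 and 5762 ± 170.2 CPM (log2 fold change 0.57). MiR-100-5p was at 907 ± 234 and 1363 ± 259 CPM (log2 fold change 0.60). Their adjusted p from limma lay between 0.208 and 0.332, and with median-ratio scaling their log2 fold changes were 0.35, 0.28, 0.10 and 0.13, in the order named. The fold change was above 0 for 19 of the 24 tested members, against 71.3% of all miRNAs. It was above the median of all miRNAs for 17 of the 24. The member farthest from 0, miR-218-5p, which was picked out after its values were seen, went the other way. It was at 125.8 ± 106.8 CPM in NC and 24.2 ± 14.7 CPM in MAFLD livers, with a log2 fold change of −2.05 (limma, adjusted p = 0.152).

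The summed level of this list was 12473 to 21974 CPM in NC and 21787 to 27255 CPM in MAFLD livers, with NC replicate 3 at the top of the controls and above the lowest MAFLD library. By mean level over all libraries, miR-101a-3p (5722 CPM), miR-27b-3p (4874 CPM) and miR-10a-5p (4842 CPM) made up most of the sum. Relative to that sum, the levels of miR-126a-3p overlapped widely between the groups. The ratio was 0.335 ± 0.0424 (SD, n = 3) in NC and 0.335 ± 0.0352 (SD, n = 3) in MAFLD livers (two-sided exact permutation test, p = 1), and it ranged from 0.287 to 0.367 over all libraries.

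**Figure D4:**
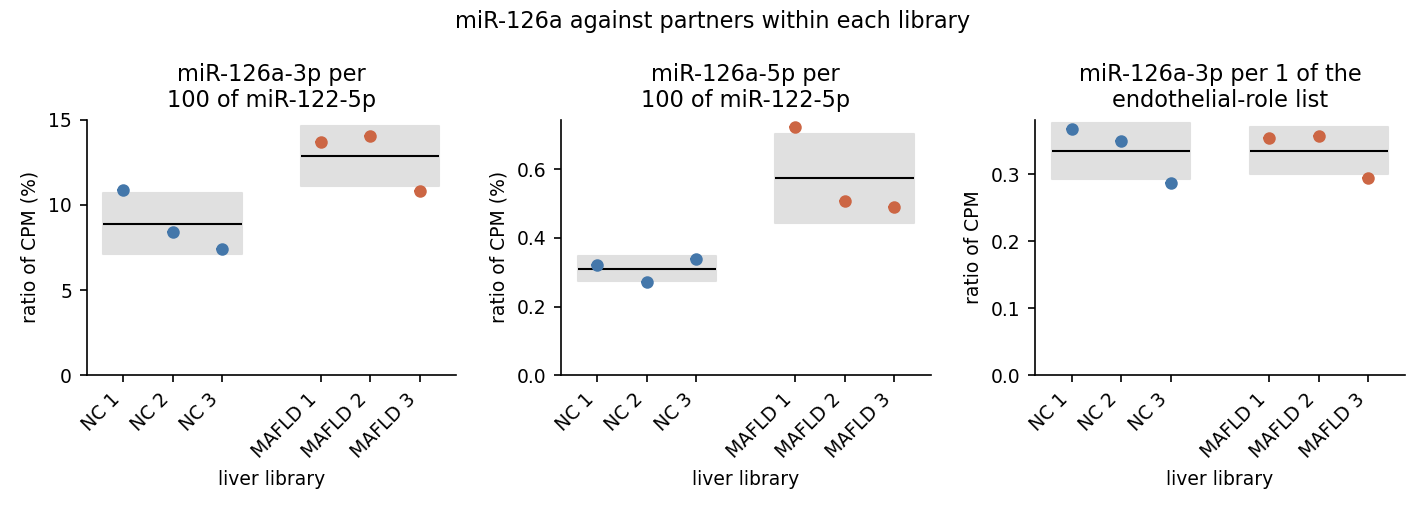
Ratio of miR-126a-3p (left) and miR-126a-5p (middle) to miR-122-5p, in percent, and of miR-126a-3p to the summed list of 25 miRNAs with endothelial roles (right), by library on linear axes from 0. Lines are group means and grey bands ± 1 SD. The 5p ratios are 0.270% to 0.339% in NC and 0.490% to 0.722% in MAFLD livers without overlap. How common this is among all miRNAs was not counted. The ratios to the endothelial-role list have a mean of 0.335 in each group.

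Lists for other cell types were counted in the same fit, where an unadjusted p under 0.05 went with a higher level for 13.4% and a lower level for 4.59% of all miRNAs. Some lists hold both arms of the same hairpin, such as miR-199a in the stellate and mesenchymal list, so their members are not all independent. In the stellate and mesenchymal list (miR-199, miR-214, miR-143 and miR-145), 3 of 6 members were higher at an unadjusted p under 0.05. The median log2 fold change of this list was 0.84. Its summed level, most of it miR-143-3p, was 12615 to 30066 CPM in NC and 19791 to 26982 CPM in MAFLD livers. In the leukocyte list, 1 of 6 members, miR-155-5p, was higher at that p, the median was 0.65, and the sums were 1616 to 3061 and 2223 to 3314 CPM. None of the members of either list was at 0 in any library.

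In the hepatocyte list, 1 of 4 members, miR-122-3p, was higher at an unadjusted p under 0.05, with a median of 0.64 and sums of 102722 to 167007 CPM in NC and 147868 to 176512 CPM in MAFLD livers. In the erythroid list, whose largest member is miR-451a of red cells, 0 of 4 tested members passed that p and the median was −0.29. Its sums were 602 to 1212 CPM in NC and 432 to 1001 CPM in MAFLD livers. The median was 0.070 in the epithelial and bile duct list (0 of 5 members), 0.38 in the muscle list (0 of 3) and −0.42 in the pancreas list, of which 1 of 3 members was tested. Sums in NC and MAFLD livers were 195.6 to 867 and 249 to 437 CPM for the epithelial list, 51.4 to 241 and 37.1 to 229 CPM for the muscle list and 1.18 to 2.55 and 0.640 to 5.21 CPM for the pancreas list, and 1 member of the muscle list and 3 of the pancreas list were at 0 in at least 1 library. In the neuronal list 2 of 5 members, miR-9-5p and miR-124-3p, were lower at an unadjusted p under 0.05, the median was −1.54, and 2 members were at 0 in at least 1 library. No member of these 9 lists passed the adjusted p with limma. Median-ratio scaling moved the medians to 0.38 in the stellate, 0.21 in the leukocyte, 0.17 in the hepatocyte, −0.75 in the erythroid, −0.39 in the epithelial, 0.12 in the muscle, −0.65 in the pancreas and −1.87 in the neuronal list, beside 0.044 for all miRNAs, so that the direction of the epithelial list turned. Without NC replicate 3, 19.0% of all miRNAs were called higher and 3.79% lower at the adjusted p (limma). In that fit 3 of 4 hepatocyte, 4 of 6 stellate and 1 of 6 leukocyte miRNAs were called higher, the last near the share of all miRNAs, and 4 of 5 neuronal miRNAs were called lower.

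**Figure D5:**
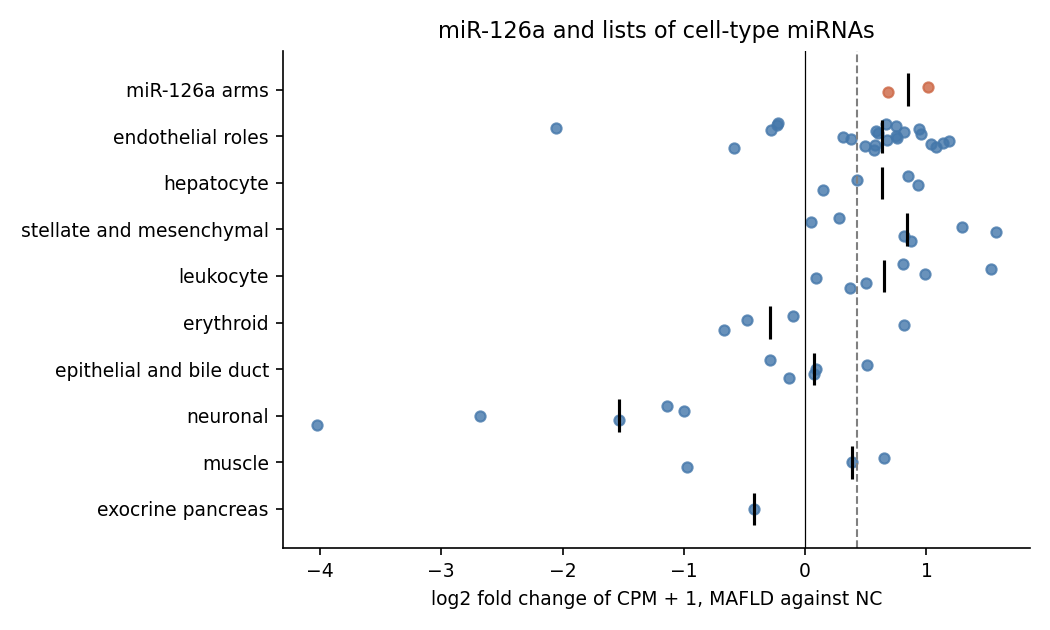
Log2 fold change of CPM + 1, MAFLD against NC, for the arms of miR-126a (orange) and the tested members of 9 lists of cell-type miRNAs (blue). Black bars are the median of each list and the dashed line is the median of all 501 miRNAs (0.43). Both arms lie right of the dashed line, as do the medians of the endothelial-role (0.63), hepatocyte (0.64), stellate (0.84) and leukocyte (0.65) lists, while the erythroid, neuronal and pancreas medians are below 0.

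Across the 6 libraries, log2 levels of the 2 arms had a Pearson r of 0.968, which is a description of 6 points that share their library and its scaling. Among 236 other miRNAs that averaged 10 CPM or more, the 5 whose pattern was most like that of the 3p arm were miR-30c-5p (r = 0.998), miR-122-3p (0.997), miR-103-3p (0.995), miR-15a-5p (0.986) and miR-92a-3p (0.983). For the 5p arm they were miR-125b-5p (0.995), let-7g-5p (0.994), let-7b-5p (0.994), let-7c-5p (0.990) and miR-29a-3p (0.988). The arms were thus not each other's nearest, as 15 miRNAs were closer to the 3p arm than the 5p arm was, and 25 were closer to the 5p arm than the 3p arm was. Such values were common, as 25.0% of the 236 had an r above 0.9 with the 3p arm and 37.7% with the 5p arm. With miR-148a-3p, which sets much of the scaling, r was −0.83 for the 3p arm and −0.93 for the 5p arm.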

How the data were processed

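Small RNA from 3 NC and 3 MAFLD mouse livers was sequenced. The table that the authors deposited holds CPM for 1546 mature miRNAs, relative to the reads on all listed miRNAs of each library. The submitters' processing notes name FastQC, cutadapt, Bowtie, edgeR and GRCm38. How reads that map to several miRNAs were assigned is not given in the sources used here. Some names had the same mean levels, as miR-199a-3p and miR-199b-3p did (440 CPM in NC and 753 CPM in MAFLD livers). Shares over all miRNAs count such names separately. The labels also describe HepG2 cells, but name each sample as liver tissue. Divided by the smallest nonzero CPM in the same library, 100% of the CPM lay no further than 0.02 from whole numbers, and reads were recovered (1336935 to 4685712 per library). Replicates were separate samples, and no 2 libraries of the same group agreed within sampling noise.

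Levels were compared with limma 3.58.1 (R 4.3.3, eBayes with trend, two-sided) on log2(CPM + 1) for 501 miRNAs that averaged 1 CPM or more, with Benjamini-Hochberg adjustment and a threshold of 0.05. The added 1 CPM draws fold changes of scarce miRNAs towards 0. Arm ratios were fitted in the same way over 105 hairpins whose arms both averaged 1 CPM or more. Single values were compared with exact permutation tests (scipy 1.17.1). Intervals of shares are 95% Wilson intervals and floors are 3 reads, both for counting error only. On the recovered reads, edgeR 4.0.16 (over 501 miRNAs) gave 1 and DESeq2 1.42.0 gave 28 miRNAs past the adjusted p.

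The members, lists and tests were chosen with earlier results of these data known. Named were both arms, the arms of miR-126b, miR-122-5p, miR-148a-3p, up to 4 most abundant members of a list and the 5 miRNAs most like each arm. Others were named after their values were seen. Alternatives were pseudocounts of 0.1 and 5, no filter or 10 CPM, other scalings, no trend, a replicate block, count tests, other ratio partners and each library left out.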

Additional observations from a re-analysis of the deposited data

How the results depend on the processing

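Both arms of miR-126a were higher in MAFLD livers in all 17 alternatives, with log2 fold changes from 0.13 to 0.84 for the 3p arm and from 0.55 to 1.35 for the 5p arm, and adjusted p from 0.0119 to 0.761 and from 0.00974 to 0.655. Leaving out 1 library gave 0.57 to 0.84 and 0.76 to 1.35, and both arms passed the adjusted p without NC replicate 3 alone. The 3p arm was at 0.22, 0.34, 0.25 and 0.21 with median-ratio scaling, CPM without miR-148a-3p, edgeR and DESeq2, and the 5p arm at 0.55, 0.67, 0.57 and 0.56. Median-ratio scaling without NC replicate 3 was a setting chosen after seeing the data. The change of the arm ratio ran from −0.51 to −0.20 over 13 alternatives, with adjusted p from 0.200 to 0.878. Over 11 alternatives the log2 difference of the ratio to a hepatocyte partner ran from 0.37 to 0.87. The lowest was miR-126a-3p to the hepatocyte sum, and the highest was miR-126a-5p to miR-122-5p. For miR-126a-3p to miR-122-5p itself it was 0.42 to 0.70 when 1 library was left out and 0.54 with the other pseudocounts. An exact test of 3 livers against 3 cannot give a p under 0.1.

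The 1 miRNA past the adjusted p became 11 without the filter (1467 tested, with the 79 miRNAs at 0 in every library left out), 2 with median-ratio scaling, 2 with CPM without miR-148a-3p, 28 with DESeq2, 36 under median-ratio scaling without NC replicate 3, and 0 without the trend, where limma gave 74 at an unadjusted p under 0.05. Leaving out 1 library gave 0 to 114, the latter without NC replicate 3, and limma gave 40 to 89 at an unadjusted p under 0.05 in the fits with 0. At an unadjusted p under 0.05, 67 of 90 miRNAs were higher with the deposited CPM, 36 of 81 with median-ratio scaling, 52 of 90 without miR-148a-3p, 37 of 87 with edgeR and 29 of 83 with DESeq2. The count of hairpins with a changed arm ratio, 0, became 1 at a mean of at least 10 CPM and ran from 0 to 14, the latter without NC replicate 3. The cause was not tested.

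With the replicate number as a block, the 3p arm had an adjusted p of 0.286, the 5p arm 0.241 and the arm ratio 0.597 from limma, 5 miRNAs and 3 hairpins passed, and the ratio to miR-122-5p had an exact p of 0.25. The deviations of same-numbered livers had correlations of 0.012, −0.020 and −0.046, beside −0.163 to 0.129 for livers of different number. With 3 livers a group, these values cannot tell whether the numbers pair the livers. The 5p arm was read 231 to 1357 times a library and the arms of miR-126b at most 2 times, which is under the floor of 3 reads.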
